A study of Mus musculus with 10 samples.

Results

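Genes of the skeletal muscle sarcomere were followed in microarrays of mouse tissue labelled as cochlea, the coiled organ of hearing, for which the extraction protocol names inner ear tissue. The set held 36 genes, chosen by name from the genes that build the contractile unit, its calcium release machinery and its energy supply. All 36 were measured by 1 probe set each, among 29766 genes with a single symbol. The samples came from CBA/CaJ mice, a strain that loses hearing late in life, taken at 6 months while hearing was normal. All were housed singly, 5 samples with a running wheel in the cage (runners) and 5 without one (controls), and no other difference between the groups is given in the labels. The labels call both groups young control mice and do not give the time or distance run, the sex, or whether each array held 1 animal. The p-values thus rest on the variation from array to array, part of which may be technical.

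A sarcomere is the repeating unit of a striated muscle fibre, in which myosin thick filaments pull on actin thin filaments anchored at Z-discs. Calcium released from the sarcoplasmic reticulum binds troponin on the thin filament and lets myosin attach. Fast and slow fibres build this machine from different copies of myosin, its light chains and the 3 troponins, so that the copies present tell the fibre type. The cochlea itself has no skeletal muscle, but the tensor tympani and stapedius of the middle ear lie next to it.

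The muscle genes were read in RNA of ground tissue, in which less muscle tissue and less RNA per fibre cannot be told apart. The median log2 level over all genes lay between 5.35 and 5.43 on the 10 arrays. Pearson correlations across genes were 0.991 to 0.997 within runners and 0.995 to 0.997 within controls. Of 7 hair cell genes, the outer hair cell gene Ocm, which encodes oncomodulin, had a log2 level of 5.88 ± 0.32 in runners and 6.19 ± 0.057 in controls (SD, n = 5 each). The arrays come with no detection calls, so no gene can be called absent, and levels are compared between samples for 1 probe set and not between probe sets.

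The 36 genes were divided by name into 11 of the fast class, 7 of the slow class and 18 shared by both fibre types. A known control element of muscle genes is the CArG box, the site of serum response factor. Promoters are shown as sequence only, and a link between them and the levels on the arrays was not tested. The RefSeq promoter table (build GRCm38.p6, 250 bases before to 50 after each start) matched 26 of the 36 genes in 32 windows. The CArG box (by name, both strands) was found in 5 of these 26 genes, 19.2%, and in 1.81% of all 27025 genes in the table. The 5 sites are given 5′ to 3′ on the strand of the gene, with the box in capitals and 10 bases on each side.
Acta1: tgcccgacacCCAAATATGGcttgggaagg
Myl3: gagccaatgcCCTTTTATGGccctgtccct
Myh4: aaagagattgCCAAAAATGGttttgccaag
Ldb3: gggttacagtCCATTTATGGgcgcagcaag
Myom1: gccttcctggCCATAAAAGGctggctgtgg
The site of Acta1 lies at chr8:123894829-123894858, minus strand. That of Myl3, a slow class gene, lies at chr9:110763583-110763612, plus strand. Those of Myh4, of the fast class, Ldb3 and Myom1 lie at chr11:67237698-67237727, plus strand, at chr14:34588697-34588726, minus strand, and at chr17:71019448-71019477, plus strand. These coordinates include the 10 bases on each side. The first base of the box itself stood 73, 85, 104, 35 and 99 bases before the annotated start, in the order Acta1, Myl3, Myh4, Ldb3 and Myom1. By class, 1 site was in a fast gene (8 of 11 matched), 1 in a slow gene (7 of 7 matched) and 3 in shared genes (11 of 18 matched).

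Other muscle elements were searched in the same windows on both strands. The MCAT element, CATTCC, was in 10 of 26 genes (38.5%, against 16.6% of all genes), and the MEF2 site (by name) in 1, Ttn (3.85% against 0.636%). The E-box, CANNTG, to which MyoD family factors bind, was in 22 (84.6% against 75.0%), and TATAAA in 7 (26.9% against 15.7%). In the member windows 0 matches of one motif overlapped a match of another. The whole windows of Acta1 (chr8:123894726-123895025, minus strand), Myh4 (chr11:67237562-67237861, plus strand) and Myl3 (chr9:110763428-110763727, plus strand) follow, with CArG and MCAT letters in capitals (GGAATG where MCAT is on the other strand), because these 3 members, 1 of each class, hold both elements.
Acta1: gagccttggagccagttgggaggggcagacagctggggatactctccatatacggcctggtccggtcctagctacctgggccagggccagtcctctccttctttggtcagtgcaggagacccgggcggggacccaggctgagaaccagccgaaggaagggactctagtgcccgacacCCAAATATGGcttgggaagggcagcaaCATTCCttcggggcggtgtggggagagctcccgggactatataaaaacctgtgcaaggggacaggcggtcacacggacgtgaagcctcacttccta
Myh4: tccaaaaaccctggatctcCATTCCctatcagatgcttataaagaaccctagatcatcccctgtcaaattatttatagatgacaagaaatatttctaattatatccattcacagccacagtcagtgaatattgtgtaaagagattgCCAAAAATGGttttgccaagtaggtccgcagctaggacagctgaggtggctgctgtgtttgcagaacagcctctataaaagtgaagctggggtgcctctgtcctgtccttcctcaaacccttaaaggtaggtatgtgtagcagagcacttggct
Myl3: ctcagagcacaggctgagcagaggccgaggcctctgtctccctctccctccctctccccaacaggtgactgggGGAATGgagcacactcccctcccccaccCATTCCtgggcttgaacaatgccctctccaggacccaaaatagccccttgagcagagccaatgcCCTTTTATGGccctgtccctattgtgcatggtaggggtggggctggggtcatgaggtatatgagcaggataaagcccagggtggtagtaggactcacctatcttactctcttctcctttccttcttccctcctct
Their within-group standard deviations on the arrays were 0.36 for Acta1, 0.30 for Myh4 and 0.055 for Myl3, the smallest of the 36 genes. A match describes letters in a window and is no measure of binding.

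No sarcomere gene was called higher or lower in runners than in controls. Of 36 genes, 0 passed limma's test at an adjusted p under 0.05, beside 2 of all 29766 genes, 0.00672%, both lower in runners. Without runner 1 the count over all genes was 99 (0.333%), and 0 members passed. At an unadjusted p under 0.05, 0 members were higher (3.21% of all genes) and 1, Myl3, was lower (3.92% of all genes). This is 2.78% of the set, below the 7.13% of all genes in either direction. The median difference over the 36 genes, runner minus control, was -0.058 on the log2 scale, beside 0.00091 over all genes. It turned above 0 when runner 1, runner 2 or control 4 was left out, at 0.0011, 0.036 and 0.014, and was largest in size without runner 3, at -0.17. Of the 36 genes 26 were lower and 10 higher in runners, where 49.5% of all genes were lower, and the members are not independent of each other.

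What stood out was the spread between samples of one group. Of the 36 genes 33 lay above their own mean on runner 3, 34 on runner 5 and 32 each on controls 2 and 4, but only 3, 2 and 1 did on runners 1, 2 and 4 and 1 on control 5. The median of the centred genes was highest on runner 3 (0.46) and control 4 (0.28) and lowest on runner 2 (-0.27) and control 5 (-0.35), while only 1 of 7 slow genes had runner 3 and control 4 as its 2 highest arrays. The within-group standard deviation had a median of 0.30 over the 36 genes and 0.12 over all genes. It was above 0.212, the 90th percentile of all genes, for 30 of 36.

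**Figure D1:**
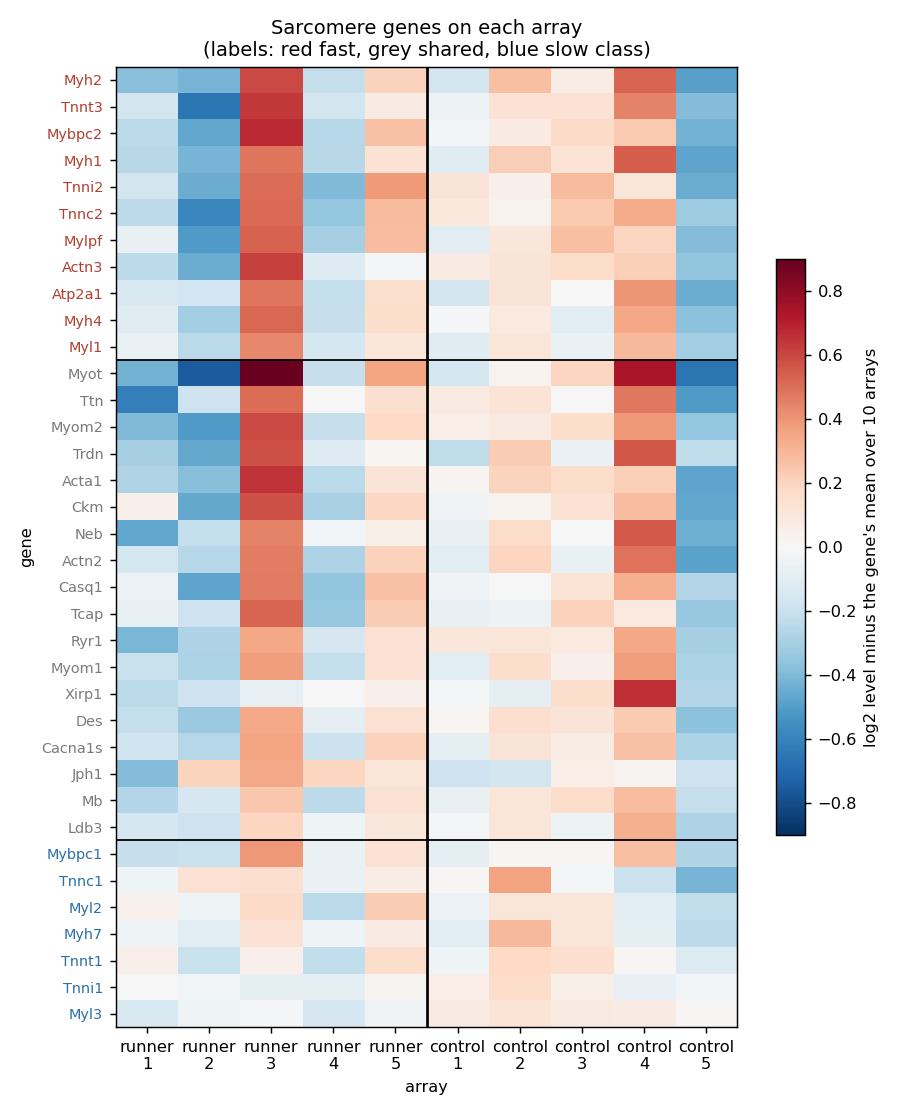
Heat map of the 36 sarcomere genes (rows, by fibre class and then by spread) on the 10 arrays (columns, runners left of controls), with colour for the log2 level minus the gene's mean over the 10 arrays. Most fast and shared genes are red on runner 3 and control 4 and blue on runner 2 and control 5, while most slow genes stay pale.

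The thick filament is built of myosin heavy chains, and 3 fast ones were measured, for fibre types IIX (Myh1), IIA (Myh2) and IIB (Myh4). These neighbouring genes are known as close paralogs, so their probe sets may share transcripts and are uncertain as separate signals, which was not checked here. Myh1 had log2 levels of 8.88, 8.71, 9.61, 8.88 and 9.26 in runners 1 to 5, against 9.02, 9.35, 9.25, 9.67 and 8.65 in controls 1 to 5. Myh2 had 7.79, 7.75, 8.76, 7.95 and 8.37 in runners 1 to 5, against 8.0, 8.44, 8.23, 8.69 and 7.68 in controls 1 to 5. Myh4 had 9.08, 8.88, 9.71, 8.98 and 9.35 in runners 1 to 5, against 9.17, 9.28, 9.09, 9.54 and 8.82 in controls 1 to 5. In all 3, runner 3 and control 4 were the highest of the 10 arrays, control 5 was the lowest, and the groups overlapped. Myh1 averaged 9.07 ± 0.36 in runners and 9.19 ± 0.38 in controls (SD, n = 5 each), a difference of -0.12 ± 0.19 (SE), and its 95% interval of -0.54 to 0.30 reaches from lower to higher in runners (limma adjusted p = 0.924). Differences were -0.08 ± 0.21 for Myh2 and 0.02 ± 0.16 for Myh4.

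The slow heavy chain Myh7, which heart muscle also uses, did not follow them. Its log2 levels were 4.89, 4.83, 5.06, 4.89 and 5.0 in runners 1 to 5, against 4.83, 5.22, 5.04, 4.84 and 4.69 in controls 1 to 5. The highest array was control 2, control 4 was among the low ones, and the difference was 0.01 ± 0.092 (SE), so the groups did not separate. The within-group standard deviation of Myh7 was 0.16, against 0.37 for Myh1, 0.41 for Myh2 and 0.30 for Myh4.

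Light chains bind the neck of the myosin head, and the fast ones followed the fast heavy chains in part. Mylpf, the fast regulatory light chain, had log2 levels of 7.16, 6.72, 7.76, 6.93 and 7.51 in runners 1 to 5, against 7.13, 7.33, 7.50, 7.42 and 6.84 in controls 1 to 5. Myl1, the fast essential light chain, had 7.63, 7.45, 8.12, 7.53 and 7.80 in runners 1 to 5, against 7.58, 7.80, 7.63, 7.98 and 7.38 in controls 1 to 5. Both were highest on runner 3. Myl1 had control 4 second and control 5 lowest, as Myh2 and Myh4 did, whereas Mylpf had runner 5 second and runner 2 lowest. The differences of Mylpf and Myl1, -0.03 ± 0.18 and 0.03 ± 0.13 (SE), were less than the spread between arrays. The slow partner of Mylpf, Myl2, had 4.48, 4.40, 4.61, 4.20 and 4.67 in runners 1 to 5, against 4.39, 4.55, 4.55, 4.34 and 4.22 in controls 1 to 5, with runner 5 highest and runner 4 lowest.

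Myl3, the slow essential light chain, was the 1 gene of the 36 whose groups did not overlap. Its log2 levels were 4.79, 4.89, 4.92, 4.78 and 4.90 in runners 1 to 5, against 5.01, 5.05, 5.01, 5.0 and 4.94 in controls 1 to 5. All 5 runners lay below all 5 controls, by a small step, with the highest runner at 4.92 and the lowest control at 4.94. The difference was -0.15 ± 0.052 (SE, interval -0.26 to -0.03), or 0.90-fold. It did not pass over all genes (limma unadjusted p = 0.015, adjusted p = 0.607). One gene of 36 is 2.78%, and 0.927% of all genes had groups that did not overlap. The standard deviation within groups was 0.055, and the level lies below the median of the arrays, where RMA values understate differences.

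Myosin-binding protein C runs along the thick filament in a fast and a slow form. The fast gene Mybpc2 had log2 levels of 6.82, 6.60, 7.74, 6.81 and 7.33 in runners 1 to 5, against 7.04, 7.14, 7.24, 7.30 and 6.64 in controls 1 to 5. Mybpc1, named for slow muscle but made in both fibre types, had 7.64, 7.65, 8.24, 7.79 and 7.98 in runners 1 to 5, against 7.77, 7.86, 7.86, 8.12 and 7.58 in controls 1 to 5. Unlike the 6 other genes of its class, Mybpc1 had runner 3 and control 4 as its 2 highest arrays, as 8 of 11 fast genes did. Its lowest array was control 5, as for Myh1, Myh2 and Myh4 but also for slow Myh7 and Tnnc1. Neither passed between groups, at -0.01 ± 0.20 for Mybpc2 and 0.02 ± 0.12 for Mybpc1 (SE).

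Titin, the giant spring that spans from Z-disc to M-band, had log2 levels of 7.0, 7.43, 8.12, 7.61 and 7.76 in runners 1 to 5, against 7.70, 7.74, 7.61, 8.09 and 7.11 in controls 1 to 5. Runner 1 was the lowest array for Ttn, below runner 2, and the groups overlapped (-0.07 ± 0.20 SE). The M-band proteins Myom1 and Myom2 crosslink thick filaments and differed by -0.08 ± 0.14 and -0.14 ± 0.19 (SE). Myom2 ranged over 2.15-fold between arrays and Myom1 over 1.58-fold.

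Thin filaments were represented by skeletal actin, nebulin and the troponins. Acta1, the skeletal actin, had log2 levels of 8.79, 8.68, 9.71, 8.82 and 9.18 in runners 1 to 5, against 9.09, 9.26, 9.23, 9.28 and 8.59 in controls 1 to 5. Control 5 stood alone at the bottom of its group, runner 3 was the highest of all, and the span from lowest to highest was 2.18-fold. Its means were 9.04 ± 0.42 in runners and 9.09 ± 0.29 in controls (SD, n = 5 each), a difference of -0.05 ± 0.19 (SE, interval -0.46 to 0.36, limma adjusted p = 0.974). Nebulin (Neb), the ruler of the thin filament, spanned 7.66 to 8.57 in runners and 7.69 to 8.68 in controls, a difference of -0.09 ± 0.18 (SE).

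Troponin T ties the complex to tropomyosin. The fast gene Tnnt3 had log2 levels of 8.40, 7.92, 9.20, 8.40 and 8.64 in runners 1 to 5, against 8.52, 8.70, 8.70, 9.01 and 8.18 in controls 1 to 5. Its slow partner Tnnt1 had 5.96, 5.71, 5.96, 5.69 and 6.07 in runners 1 to 5, against 5.87, 6.09, 6.06, 5.92 and 5.79 in controls 1 to 5. Tnnt3 spanned 2.43-fold over the 10 arrays and Tnnt1 1.31-fold, and the order of the arrays differed between them, with control 4 second highest for Tnnt3 and in the middle for Tnnt1.

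Troponin I holds myosin off the filament at rest, and its pair showed a wide gap in spread. The fast gene Tnni2 had log2 levels of 6.34, 6.06, 7.01, 6.11 and 6.89 in runners 1 to 5, against 6.62, 6.55, 6.79, 6.61 and 6.06 in controls 1 to 5. Slow Tnni1 had 5.52, 5.49, 5.43, 5.43 and 5.54 in runners 1 to 5, against 5.58, 5.68, 5.57, 5.44 and 5.49 in controls 1 to 5. On runner 3 Tnni2 was at its highest, while Tnni1 was at 5.43, a value shared with runner 4 and the lowest of the 10 arrays. The within-group standard deviation was 0.37 for Tnni2 and 0.075 for Tnni1, a ratio of 4.95.

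Troponin C is the calcium sensor. The fast gene Tnnc2 had log2 levels of 8.22, 7.87, 8.97, 8.11 and 8.74 in runners 1 to 5, against 8.55, 8.49, 8.69, 8.79 and 8.14 in controls 1 to 5, and the slow and cardiac gene Tnnc1 had 5.12, 5.30, 5.31, 5.10 and 5.23 in runners 1 to 5, against 5.17, 5.52, 5.14, 4.97 and 4.74 in controls 1 to 5. Tnnc2 was high on runner 3 and low on runner 2, while Tnnc1 was set apart by control 2 at the top and control 5 at the bottom. Tnnc2 differed by -0.15 ± 0.19 and Tnnc1 by 0.10 ± 0.12 (SE), in opposite directions and each within its spread. Without control 2 Tnnc1 came to an unadjusted p of 0.0424 (0.21 ± 0.091 SE, adjusted p = 0.992), which made 2 genes at that threshold, 1 higher and 1 lower, where 4.84% of all genes were.

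**Figure D2:**
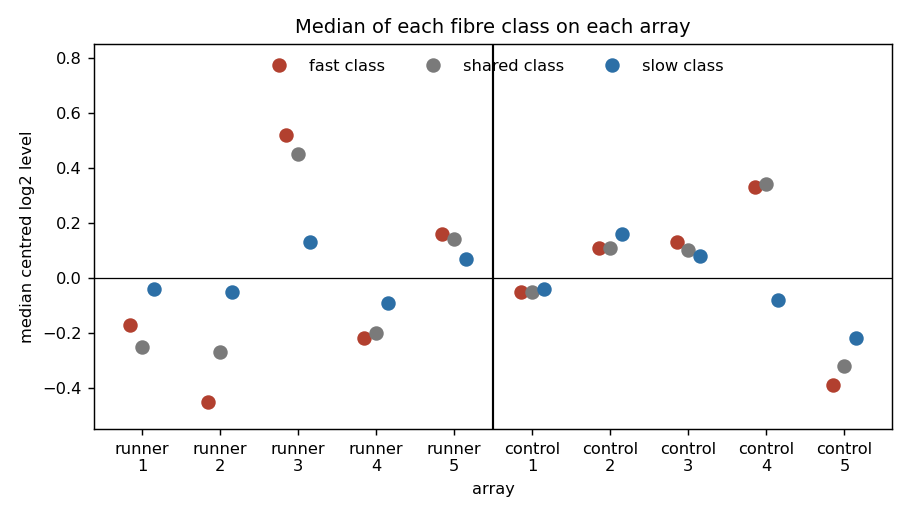
Median of the fast, shared and slow classes on each array (runners left of controls), each gene centred on its mean over the 10 arrays, in log2 units. The fast median runs from -0.45 on runner 2 to 0.52 on runner 3, and the slow median from -0.22 on control 5 to 0.16 on control 2.

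Fast genes as a class varied more than slow genes. The median of the centred fast genes was -0.17, -0.45, 0.52, -0.22 and 0.16 in runners 1 to 5, against -0.05, 0.11, 0.13, 0.33 and -0.39 in controls 1 to 5. The slow median was -0.04, -0.05, 0.13, -0.09 and 0.07 in runners 1 to 5, against -0.04, 0.16, 0.08, -0.08 and -0.22 in controls 1 to 5. From the lowest to the highest array the fast class spanned 1.96-fold and the slow class 1.31-fold. All 11 fast genes lay above their own mean on runner 3 and on controls 2 and 4, and 0 of 11 did on runners 1, 2 and 4 and on control 5. On control 4 only 3 of 7 slow genes lay above their mean, where fast and slow medians were 0.33 and -0.08.

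In each of the 9 fast and slow pairs compared (3 fast heavy chains against Myh7, the 3 troponins, both light chains and both forms of myosin-binding protein C) the fast gene had the larger within-group standard deviation, by 1.68 to 4.95 times. The difference fast minus slow, taken on each array from the class medians, averaged -0.04 ± 0.30 in runners and 0.05 ± 0.22 in controls (SD, n = 5 each), so -0.082 ± 0.16 (SE) between groups. For single pairs the difference between groups lay between -0.25 ± 0.24 (SE) for Tnnc2 over Tnnc1 and 0.18 ± 0.14 for Myl1 over Myl3, and the 95% intervals of all 9 held 0. The class medians themselves differed between groups by -0.06 for fast genes and 0.03 for slow genes. Taken instead as the median over genes of each gene's difference, the values were -0.042 for fast genes and 0.0094 for slow genes.

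The 6 slow genes other than Mybpc1 had lower means over the arrays, 4.44 to 5.91, and a dim probe set responds less to RNA. Of these only Tnnt1 and Tnni1 passed a filter on dim genes. The median standard deviation of the 6 genes was 0.16, beside 0.12 over the 6745 genes in that range of levels. The 11 fast genes had means of 6.50 to 9.84 and a median standard deviation of 0.37, beside 0.12 over the 8584 genes in their range. The part of dimness in the gap between classes was not tested.

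**Figure D3:**
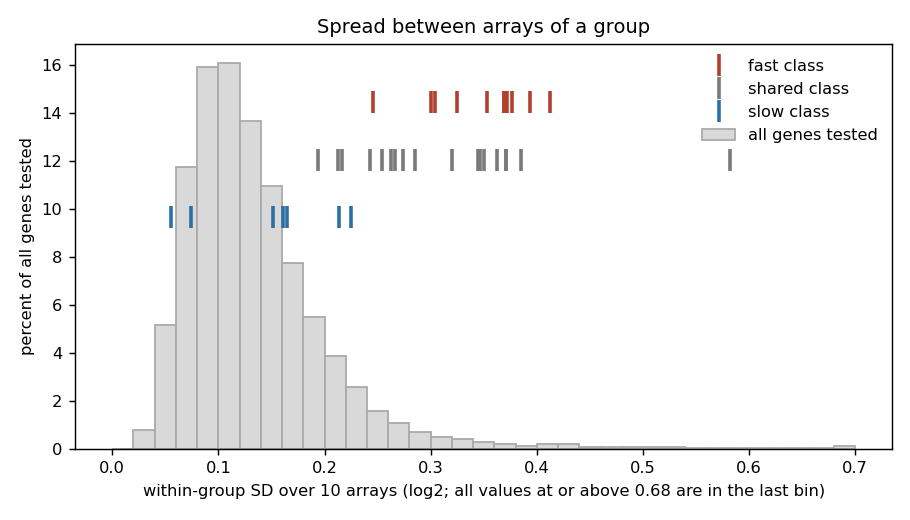
Histogram of the within-group standard deviation (log2) over all genes tested (grey bars, percent of genes), with a tick for each gene of the fast, shared and slow classes. Fast genes lie between 0.25 and 0.41 and slow genes between 0.055 and 0.23, beside a median of 0.12 over all genes.

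The Z-disc anchors thin filaments, and of its 7 genes in the set 5 had runner 3 and control 4 as the 2 highest arrays, all but Tcap and Xirp1. Actn3, the alpha-actinin of fast fibres, had log2 levels of 7.88, 7.67, 8.73, 8.0 and 8.10 in runners 1 to 5, against 8.19, 8.23, 8.28, 8.33 and 7.76 in controls 1 to 5. As for Acta1, control 5 stood below the other controls, and runner 3 was highest. The alpha-actinin of all fibres, Actn2, spanned 7.18 to 7.92 in runners and 6.98 to 7.95 in controls, and the titin cap gene Tcap 7.07 to 7.94 in runners and 7.07 to 7.62 in controls. Differences were -0.08 ± 0.17 for Actn3, -0.01 ± 0.18 for Actn2 and 0.07 ± 0.15 for Tcap (SE).

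Myotilin (Myot), a Z-disc protein that binds alpha-actinin, had the widest spread of the 36 genes. It ranged over 3.11-fold, from 6.06 on runner 2 to 7.70 on runner 3, and differed by -0.06 ± 0.30 (SE) between groups. Ldb3, a Z-disc scaffold, ranged over 1.51-fold (-0.03 ± 0.11). Desmin (Des), the intermediate filament that links Z-discs and is also made in smooth muscle, had log2 levels of 6.33, 6.21, 6.88, 6.46 and 6.68 in runners 1 to 5, against 6.56, 6.69, 6.66, 6.78 and 6.17 in controls 1 to 5. It followed the same order at a smaller scale, and differed by -0.06 ± 0.14 (SE). Xirp1, an actin-binding protein of muscle attachment sites, departed from it, with control 4 at 6.18 and the other arrays between 5.26 and 5.68 (-0.18 ± 0.14 SE).

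Genes of the triad, where the electrical signal is turned into calcium release, differed by less than their spread. Atp2a1, the calcium pump SERCA1 of fast fibres, had log2 levels of 9.70, 9.66, 10.32, 9.62 and 9.98 in runners 1 to 5, against 9.67, 9.95, 9.83, 10.23 and 9.39 in controls 1 to 5. Runner 3 and control 4 were again highest and control 5 lowest, and the difference was 0.04 ± 0.16 (SE). The calcium store protein gene Casq1 differed by -0.06 ± 0.17, the release channel gene Ryr1 by -0.14 ± 0.14, its voltage sensor Cacna1s by -0.03 ± 0.13 and triadin, Trdn, by -0.11 ± 0.19 (SE). Adjusted p lay between 0.866 and 0.982 for these 5 genes (limma).

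Jph1 encodes junctophilin 1, a tether between the surface membrane and the calcium store. Its order of arrays was unlike that of most of the 36, and it was singled out after its values were seen. Its log2 levels were 7.18, 7.77, 7.91, 7.76 and 7.68 in runners 1 to 5, against 7.38, 7.40, 7.63, 7.59 and 7.38 in controls 1 to 5. Runners 2 to 5 were all above the highest control, whereas runner 1 was the lowest of the 10 arrays. Outside the set, the calcium pump gene Atp2a2 and the brain gene Gabra6 had the same order. Atp2a2 was 9.80 on runner 1 and 10.02 to 10.19 on runners 2 to 5, with the highest control at 9.94. Gabra6 was 10.34 on runner 1 and 10.70 to 11.13 on runners 2 to 5, with the highest control at 10.64. The difference for Jph1 was 0.19 ± 0.12 (SE, limma adjusted p = 0.771). Without runner 1 it was 0.30 ± 0.074 (SE, unadjusted p = 0.00148, adjusted p = 0.0862), which made 2 genes at an unadjusted p under 0.05, with 14.5% of all genes at that threshold. Unlike most of the 36, Jph1 was above its mean on runners 2 and 4, where most muscle genes were low.

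Energy and oxygen supply were covered by muscle creatine kinase and myoglobin. Ckm had log2 levels of 8.91, 8.40, 9.44, 8.57 and 9.05 in runners 1 to 5, against 8.83, 8.89, 8.99, 9.14 and 8.39 in controls 1 to 5. Runner 3 was highest, and runner 2 and control 5 were lowest, within 0.01 of each other. Its difference was 0.03 ± 0.18 (SE, interval -0.37 to 0.42), and that of myoglobin, Mb, which is rich in oxidative fibres, -0.11 ± 0.12 (SE).

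**Figure D4:**
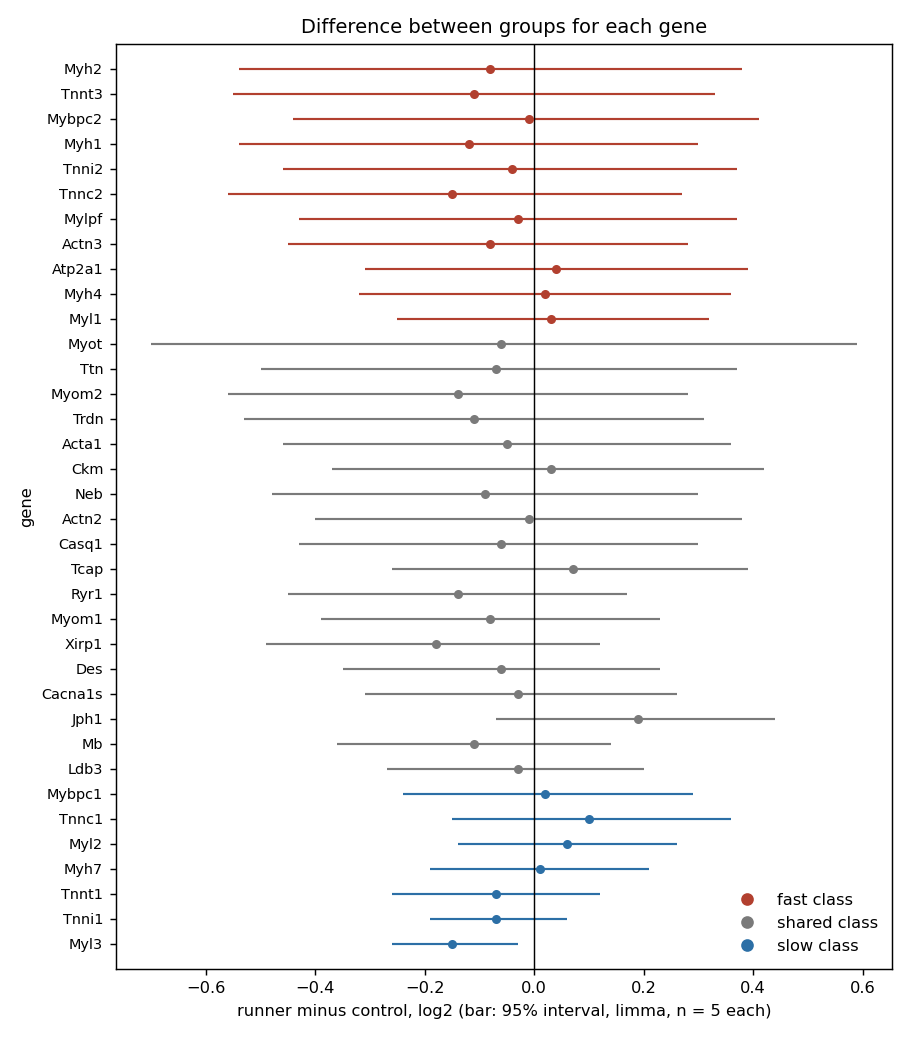
Difference between runners and controls for each of the 36 genes in log2 units (points) with its 95% interval from limma (bars, n = 5 each), coloured by fibre class. The interval holds 0 for 35 genes and lies below 0 for Myl3, at -0.26 to -0.03.

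The order of the arrays was shared by most members. Runner 3 and control 4 were the 2 highest of the 10 arrays for 24 of 36 genes, 66.7%, beside 1.73% of all genes. These arrays and control 5 were picked from the members' own values, so the gap to all genes is no test. Runner 3 was the highest runner for 32 and control 5 the lowest control for 33 (88.9% and 91.7%, beside 19.0% and 19.1% of all genes). Among the fast genes all 11 had control 5 as the lowest control and runner 3 as the highest runner. Without runner 3 and control 4, a choice made after the data were seen, the median within-group standard deviation of the 36 genes was 0.22, beside 0.12 over all genes.

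Muscle genes outside the set were read from further lists. Of 23 other measured Z-disc, thin filament and membrane genes of muscle, 0 passed over all genes. At an unadjusted p under 0.05, 0 were higher and 2 were lower, beside 3.21% and 3.92% of all genes. The 2 were the stretch-responsive gene Ankrd2 (-0.17 ± 0.06 SE) and Lmod3, a nucleator of thin filaments (-0.21 ± 0.09 SE). The median of the 23 genes was highest on runner 3 (0.25) and control 4 (0.19) and lowest on runner 2 (-0.25) and control 5 (-0.24). The 11 genes of muscle glycogen, glycolysis and phosphagen had the same 2 highest and 2 lowest arrays (0.36, 0.18, -0.22 and -0.19). In that list 0 passed and 1 was lower at an unadjusted p under 0.05, beside 3.92% of all genes. It was Ppp1r27 (-0.25 ± 0.081 SE), with phosphofructokinase Pfkm next (0.13 ± 0.086 SE). The 13 other triad and calcium genes had another order of arrays. Their list median was highest on runner 3 (0.19) and runner 5 (0.10), with control 4 at -0.01. It was lowest on runner 1 (-0.16) and runner 4 (-0.14). Of these 13 genes 0 came to either threshold. Atp2a2, the calcium pump SERCA2 of slow and heart muscle and of most other cells, was at 0.14 ± 0.072 and its inhibitor Sln at 0.12 ± 0.071 (SE).

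Parvalbumin, Pvalb, is a calcium buffer of fast fibres and of some neurons. It had log2 levels of 8.89, 8.79, 9.56, 8.89 and 9.35 in runners 1 to 5, against 9.06, 8.89, 9.23, 8.91 and 8.86 in controls 1 to 5. Runners 3 and 5 were highest, but control 4 was near the low controls, and the difference was 0.11 ± 0.14 (SE).

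Genes of the junction with the nerve and of muscle precursors varied less between arrays than the 36 genes, and about as much as all genes. Their median within-group standard deviations were 0.10 and 0.12, beside 0.30 for the 36 genes and 0.12 over all genes. Musk, Chrna1, Calcr, Myod1 and Pax7 lay below the median level of every array, where a probe set responds less to RNA. Lrp4 and Mef2c lay above it, and the part of dimness was not tested. Of 10 genes of the neuromuscular junction 0 passed and 1 was lower at an unadjusted p under 0.05, beside 3.92% of all genes. It was Lrp4 (-0.16 ± 0.068 SE), and the kinase Musk differed by -0.16 ± 0.073 (SE). The receptor subunit Chrna1 spanned 4.81 to 5.16 in runners and 4.87 to 5.15 in controls. The median of the junction genes spanned 1.13-fold over the arrays, beside 1.96-fold for the fast class. Of 12 measured myogenic regulators and satellite cell genes 0 passed. At an unadjusted p under 0.05, 1 was lower, Mef2c (-0.15 ± 0.066 SE), again beside 3.92% of all genes. The median of these 12 genes spanned 1.10-fold. Calcr differed by 0.14 ± 0.076, Myod1 by 0.11 ± 0.096 and the satellite cell gene Pax7 by -0.02 ± 0.066 (SE).

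Embryonic Myh3 and neonatal Myh8 differed by -0.01 ± 0.076 and 0.02 ± 0.098 (SE), and the embryonic light chain Myl4 by -0.20 ± 0.066 (SE, limma unadjusted p = 0.0115, adjusted p = 0.607), 1 of 3 measured. The median of these 3 was highest on runner 3 (0.16) and lowest on control 5 (-0.18). Myh13 of extraocular muscle and Myh7b differed by -0.04 ± 0.057 and -0.04 ± 0.057 (SE), and 0 of 3 genes of that list came to either threshold. The atrophy genes Fbxo32 and Trim63, ubiquitin ligases, differed by -0.18 ± 0.074 (adjusted p = 0.651 in limma) and -0.05 ± 0.12 (SE), with 0 of 2 passing over all genes.

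Some slow class genes, such as Myh7 and Tnnc1, also mark the heart, so heart genes are given beside the slow class. Of 9 heart muscle genes 0 came to either threshold, and their list median lay between -0.06 and 0.04 in runners and between -0.14 and 0.10 in controls. Myh6 spanned 4.99 to 5.15 in runners and 4.92 to 5.25 in controls, Tnni3 5.26 to 5.34 in runners and 5.25 to 5.41 in controls and Nppa 4.32 to 4.65 in runners and 4.39 to 4.75 in controls. Ryr2 and Mybpc3 came nearest to the thresholds, at 0.30 ± 0.15 and 0.17 ± 0.099 (SE), and Ryr2 is also made by neurons. The part of heart or other slow tissue in the slow class values was not tested.

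Smooth muscle shares desmin with the set. Of 8 smooth muscle genes 0 passed and 1 was higher at an unadjusted p under 0.05, beside 3.21% of all genes. It was Tagln (0.25 ± 0.088 SE), followed by Myh11 (0.21 ± 0.095) and Acta2 (0.13 ± 0.086). The log2 of the summed linear values of the 8 genes lay between 9.16 and 9.43 in runners and between 9.15 and 9.34 in controls. Tendon genes were lower in 5 of 6 without passing, with 1 at an unadjusted p under 0.05, Tnmd, the tenomodulin gene, at 4.25, 3.91, 4.30, 4.15 and 4.31 in runners 1 to 5, against 4.34, 4.44, 4.64, 4.77 and 4.45 in controls 1 to 5. All runners lay below all controls for Tnmd, a difference of -0.34 ± 0.096 (SE, limma adjusted p = 0.569), and Fmod differed by -0.15 ± 0.073 (SE). Groups did not overlap for 0.927% of all genes. Lower in runners were 49.5% of all genes, and 3.92% at an unadjusted p under 0.05.

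The list medians of fat and brain genes were also highest on runner 3, though not every gene was. The median of 7 adipocyte genes was -0.02, 0.13, 0.52, -0.05 and 0.34 in runners 1 to 5, against -0.35, -0.16, -0.19, -0.03 and -0.06 in controls 1 to 5. Runner 3 and then runner 5 were highest, as among the runners for the fast class, while control 4 was at -0.03 here and 0.33 for the fast class. The log2 of the summed linear values was 8.63 to 9.25 in runners and 8.23 to 8.71 in controls. Fabp4, a fatty acid carrier, and Cidec, a lipid droplet gene, differed by 0.53 ± 0.12 and 0.73 ± 0.18 (SE), 2 of the 4 genes of that list higher at an unadjusted p under 0.05, and 0 passed. At that threshold 3.21% of all genes were higher. The median of 5 brown fat genes was 0.77 on runner 3 and 0.59 on runner 5, with Elovl3, highest on runner 5, at 1.04 ± 0.20 and Ucp1, highest on runner 2, at 1.93 ± 0.54 (SE; 2 of 5 higher at an unadjusted p under 0.05, 0 passed), and its summed values were 8.92 to 9.97 in runners and 8.87 to 9.22 in controls on the log2 scale. The median of 5 brain genes was 0.32 on runner 3, led by Gabra6 (0.24 ± 0.13) and Cbln1 (0.15 ± 0.12 SE), with 0 of 5 at either threshold and summed values of 11.40 to 12.05 in runners and 11.46 to 11.70 in controls.

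Control 4 was instead the highest array for the medians of osteoblast and B lineage genes, at 0.44 and 0.41, which had runner 3 lowest at -0.39 and -0.48. Osteoblast genes held the 2 genes that passed over all genes, Bglap (-0.85 ± 0.066) and Bglap2 (-0.95 ± 0.083 SE), which are near-identical copies, and 5 of 7 were lower at an unadjusted p under 0.05. Of the B lineage list, with Cd79b (-0.66 ± 0.11) and Blk (-0.42 ± 0.073 SE) first, 0 passed and 5 of 6 had an unadjusted p under 0.05, each lower. At that threshold 3.92% of all genes were lower, and the lists were chosen with earlier results known. The median of hair cell genes was lowest on runner 3 too, at -0.30 (Ocm -0.32 ± 0.12, Slc26a5 -0.21 ± 0.09 SE), with 3 of 7 lower at an unadjusted p under 0.05 and 0 passing. The part of other tissues carried with the cochlea in the muscle values was not tested.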

How the data were processed

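Each sample was put on its own array after biotin labelling of total RNA from ground inner ear, per the labels' protocols. The authors deposited log2 values for each transcript cluster. RMA, a method that normalizes by quantiles, and Partek are named per the submitters' processing notes. For build and filters, nothing is given in the sources used here.

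Of 39295 probe sets, 30130 had 1 distinct symbol (827 updated through Entrez identifiers to RefSeq names), giving 29766 genes, the brightest probe set of each. The platform annotation wrote the symbol more than once for 27 members. Members and lists were chosen with earlier results of these data known. All genes were fitted in limma 3.58.1 (R 4.3.3, a group term alone, two-sided, Benjamini-Hochberg over all genes, adjusted p under 0.05), and member rows were read from that fit. Differences are runner minus control with the moderated standard error. Classes and lists have no test of their own.

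Values on every array are given for fast and slow partners, Acta1, Ckm, Ttn, Des, Actn3 and Atp2a1, and of each further list the 2 genes with the smallest p and a few markers. Xirp1, Myot and Jph1 were singled out after their values were seen. In simulated data 85% of 100 genes changed by 0.5 log2 and 98% of 100 changed by 1 log2 were recovered, with 13 false calls among 29766 genes. The changed genes were drawn from all genes, whose median within-group standard deviation was 0.12, against 0.30 for the members. These shares therefore do not tell how often a change in a member would be found. Alternatives were a dim gene filter, moderation, normalization, array weights, probe set choice, class membership, a replicate block and each array left out. Replicate numbers showed no clear pairing of the arrays.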

Additional observations from a re-analysis of the deposited data

Results flagged for a closer look

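An array was marked where its gap to the nearest of the 5 in its group, over the group's range, was above 0.71, which chance gives in about 1 of 20 groups. Of 168 groups tested 6 were marked. Acta1 was 8.59 on control 5, against 9.09 to 9.28 on the other controls. Actn3 was 7.76 on control 5, against 8.19 to 8.33. Outside the sarcomere set, Myh13 was 5.09 on control 5 (others 5.24 to 5.29), Elovl3 was 4.05 on control 5 (others 3.65 to 3.75), Fabp4 was 6.59 on control 1 (others 6.98 to 7.14) and Musk was 4.83 on runner 1 (others 4.60 to 4.64).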

How the results depend on the processing

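The count of sarcomere genes past an adjusted p under 0.05 was 0 under every alternative run, where the smallest adjusted p of a member was 0.0862 (Jph1 without runner 1), and at an unadjusted p under 0.05 it was 1 (limma). That count was 0 (beside 8.39% of all genes in that fit) with dim genes left out, a filter that Myl3 did not pass and that kept 31 of 36 genes, and 2 with array weights, where Jph1 joined Myl3 (0.26 ± 0.096 SE), beside 12.9% of all genes. With 1 array left out it lay between 1 and 2, beside 4.84% to 14.5% of all genes. Array weights moved the median difference above 0, to 0.063 (fast class 0.11), and gave 15 genes over all genes. With 1 array left out the median difference lay between -0.17 and 0.036, fast class -0.18 to 0.064, slow class -0.057 to 0.035, fast minus slow -0.19 to 0.012, and the median within-group standard deviation 0.25 to 0.32. Repeated quantile normalization and centring on array medians gave medians of -0.046 and -0.035, with the median of all genes at 0.0018 and 0.024. Without runner 1 and control 1, chosen after the data were seen, 426 genes passed over all genes and 0 members, beside 99 genes without runner 1 alone, and the 1 member at an unadjusted p under 0.05 was Jph1 in place of Myl3 (15.5% of all genes). The median difference of the slow class turned to -0.028 without Mybpc1 and to -0.066 with Tnnt1, Tnni1 and Mybpc1 alone. These are also the slow genes that passed the dim filter. For the 22 members given array by array, 65 of 436 differences changed sign and 0 were called. The 436 include settings that leave the difference of a gene as it is, so that no sign could change. These are moderation, the dim filter, the replicate block and, as each member has 1 probe set, the mean of all probe sets. With the replicate number as a block 0 members passed, 1 was at an unadjusted p under 0.05, and fast minus slow was -0.082 ± 0.17 (SE). Deviations of same-numbered arrays correlated at -0.25, 0.061, 0.28, 0.070 and -0.19 over all genes. Only runner 3 matched the control of its own number best, so no clear pairing by number was seen. Whether arrays of one number shared a batch was not tested. Dim probe sets, among them the slow genes other than Tnnt1, Tnni1 and Mybpc1, limit what could be seen.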
